A study of Mus musculus with 7 samples.

Results

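Glutathione is the tripeptide of glutamate, cysteine and glycine that keeps the thiols of a cell reduced. Measured in TRAMP-C1 cells, 7 genes of its supply are described, taken by symbol from a list and ordered along the pathway. They are Slc7a11 (cystine uptake), Gclc and Gclm (the first step of synthesis), Gss (the second step), Gsr (reduction of the oxidised form), Glrx (a glutathione-dependent thiol reductase) and Ggct (breakdown of gamma-glutamyl peptides). All 7 were found among 46603 gene rows, and all 7 were among the 16731 genes with enough counts to test.

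In mouse and human cells the cystine carrier xCT, encoded by Slc7a11, exchanges extracellular cystine for glutamate, and cystine is reduced to cysteine inside the cell. Glutamate-cysteine ligase joins cysteine to glutamate, and glutathione synthetase adds glycine. NRF2, the transcription factor encoded by Nfe2l2, binds antioxidant response elements and is known to raise transcription of several of these genes, and KEAP1 marks it for degradation. Slc7a11 is also known as a target of ATF4, the factor of the amino acid response.

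TRAMP-C1 is a line from a prostate tumour of the C57BL/6-TgN(TRAMP)8247Ng mouse strain, whose transgene drives prostate tumours, so all groups share that background. Cells received the PAX8-NFE2L2 fusion in the lentiviral Lv229 plasmid (3 libraries) or the matching empty vector (3 libraries). Virus was left on the cells for 12 h, and they grew for 24 h more after fresh medium was added. A single further library was labelled WT, and its label names no vector. The sources used here do not give the promoter of the plasmid, any selection or the share of cells that took up virus. No label says that replicates are separate cultures, and p-values then cover only the spread between these libraries, which may be technical. Polyadenylated RNA was read in 50 bp single-end reads, and reads in genes came to between 26368182 and 59597170 per library. Levels are given as counts scaled to library size (CPM). By counting error alone, 0 counts allow a level of up to 0.0503 CPM in the deepest library and 0.114 CPM in the shallowest.

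The labels were checked against the construct and against cell type markers. Pax8, part of the fusion, had 6.40, 8.53 and 5.57 CPM in the fusion libraries, against 0.0334, 0.0358 and 0.217 CPM in the empty vector libraries and 0.0401 CPM in WT (log2 fold change of fusion over empty vector 6.25, edgeR adjusted p = 0.00327). Without empty vector replicate 3, which has the highest of the empty vector levels, this was 7.53. Nfe2l2 averaged 136 ± 11.9 CPM with the fusion and 119 ± 7.16 CPM with empty vector (SD, n = 3 each), with 120.1 CPM in WT, and fell short of the threshold used below (log2 fold change 0.19, edgeR adjusted p = 0.885). Whether reads of the construct count toward mouse Pax8 and Nfe2l2 depends on its sequence, which the sources used here do not give. Keap1 averaged 88.2 ± 7.16 CPM with the fusion and 53.8 ± 4.75 CPM with empty vector, with 87.0 CPM in WT, and fell short of the threshold (edgeR adjusted p = 0.12) but passed with the replicate block (edgeR adjusted p = 0.00335) and by DESeq2 (adjusted p = 0.00972). The cell type label is prostate epithelial, yet only 6 of 12 epithelial markers reached 1 CPM in any library. Krt8, an epithelial keratin, reached at most 1.90 CPM and Epcam, an epithelial adhesion molecule, at most 0.529 CPM. All 10 mesenchymal markers reached 1 CPM. Their summed level was 14030 to 20620 CPM with the fusion, 14590 to 23640 CPM with empty vector and 24850 CPM in WT. Immune markers summed to 3.35 to 4.16 CPM with the fusion, 2.19 to 2.97 CPM with empty vector and 3.57 CPM in WT, with 2 of 6 markers at 0. Endothelial markers summed to at most 0.942 CPM, and none of the 4 reached 1 CPM. The part of these levels in the results was not tested.

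Sequence upstream of the start that RefSeq gives was read from promoters of build GRCm38.p6, which held 5 of the 7 genes (Slc7a11, Gclm, Gss, Glrx and Ggct). Windows of 250 bases were searched on both strands for the core of the antioxidant response element, TGACNNNGC, and for an amino acid response element, TGATGCAAA. Only these letters were searched, and other forms of either element were not. The core was in 10.2% of 32851 promoter windows of this length and the amino acid response element in 0.225%. The 3 windows below are shown because they held a match, and capitals mark the matching letters. Gclm lies at chr3:122245307-122245556 on the plus strand, Slc7a11 at chr3:50443614-50443863 on the minus strand and Ggct at chr6:54992868-54993117 on the minus strand, each printed 5′ to 3′ towards the gene.
Gclm: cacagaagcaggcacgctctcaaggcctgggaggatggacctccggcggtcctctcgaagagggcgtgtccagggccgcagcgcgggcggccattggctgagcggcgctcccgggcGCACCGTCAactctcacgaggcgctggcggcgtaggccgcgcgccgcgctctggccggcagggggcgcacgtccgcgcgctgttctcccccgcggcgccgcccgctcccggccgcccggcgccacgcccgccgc
Slc7a11: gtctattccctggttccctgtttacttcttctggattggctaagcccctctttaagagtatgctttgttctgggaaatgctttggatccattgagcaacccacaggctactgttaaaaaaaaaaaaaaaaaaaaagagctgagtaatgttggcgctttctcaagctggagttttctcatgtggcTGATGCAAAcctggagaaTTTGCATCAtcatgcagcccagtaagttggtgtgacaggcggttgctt
Ggct: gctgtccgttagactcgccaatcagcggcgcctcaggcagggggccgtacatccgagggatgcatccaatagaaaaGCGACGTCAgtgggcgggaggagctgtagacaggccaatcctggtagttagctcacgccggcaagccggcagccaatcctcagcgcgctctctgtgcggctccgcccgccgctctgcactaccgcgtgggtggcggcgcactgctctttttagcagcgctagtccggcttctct
Gclm held 1 match to the core, on the opposite strand, 134 to 126 bases before the start. Ggct held 1 such match, 174 to 166 bases before the RefSeq start, which lies 83 bases inside the GENCODE gene whose position is given below. Slc7a11 held the amino acid response element in both orientations, at 66 to 58 and at 48 to 40 bases before the start. Neither set of letters was in the windows of Gss and Glrx, which says only that these letters are not there. A match is a description of sequence, and no binding was measured.

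The series was designed to ask which transcripts differ between cells with the fusion and cells with empty vector. Slc7a11, Gclc and Gclm rose with the fusion, by 2.62, 3.15 and 4.30 times in mean CPM. Thus 3 of the 7 genes passed as higher and 0 as lower (edgeR's quasi-likelihood test, with p adjusted after Benjamini and Hochberg over all tested genes and a threshold of 0.05), where 1.69% of all tested genes were called higher and 0.353% lower. Gsr and Glrx did not pass that test, though their fusion libraries all lay above their empty vector libraries, and Gss and Ggct overlapped between the groups. Every fusion library lay above every empty vector library for 5 of the 7 genes, as it did for 9.15% of the tested genes. The median log2 fold change was 1.17 over the 7 genes and 0.01 over all tested genes. No label pairs the libraries, and pairing by replicate number was read from these same data. With that number as a block 5 of the 7 passed as higher (Slc7a11, Gclc, Gclm, Gsr and Glrx) and 0 as lower. In that fit 7.63% of the tested genes were called higher and 5.5% lower.

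**Figure D1:**
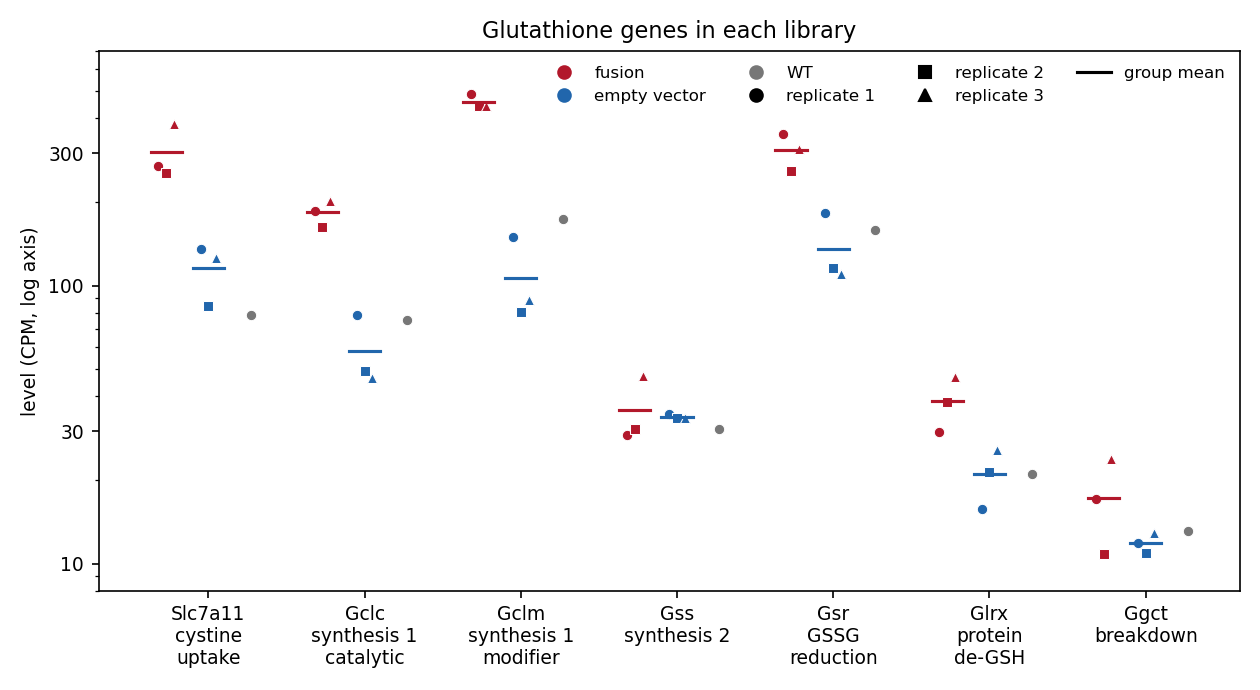
Level of each of the 7 genes (x axis) in CPM (y axis, log scale) in the fusion, empty vector and WT libraries, 1 point per library, with a bar at the mean of 3 libraries. The fusion points lie above the empty vector points for Slc7a11, Gclc, Gclm, Gsr and Glrx and overlap them for Gss and Ggct.

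Slc7a11 (ENSMUSG00000027737.9, chromosome 3:49892526-50443614, minus strand) had 270.3, 255 and 380.3 CPM in fusion replicates 1, 2 and 3, against 135, 84.8 and 126 CPM in empty vector replicates 1, 2 and 3. WT had 78.2 CPM. The fusion libraries stood above all others, with replicate 3 the highest of them, and WT was below every empty vector library. The log2 fold change of fusion over empty vector was 1.39 (SE 0.26, 95% interval 0.79 to 1.98, edgeR adjusted p = 0.0372). Libraries with the same number differed 2.0, 3.01 and 3.01 times. The call was lost whenever any of the 6 libraries was left out (edgeR adjusted p = 0.0632 to 0.152), and it was kept with the replicate block (edgeR adjusted p = 0.00353). As the transcripts come from bulk RNA, a higher level per cell and a larger share of expressing cells cannot be told apart for any of the genes.

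Slc3a2, the heavy chain that carries xCT to the membrane, was taken with it as its partner. It had 365, 425 and 321 CPM with the fusion, against 260.1, 244 and 192 CPM with empty vector and 185 CPM in WT. The groups did not overlap, but the test was not passed (log2 fold change 0.67, edgeR adjusted p = 0.213) except with the replicate block (edgeR adjusted p = 0.00687). The ratio of Slc7a11 to Slc3a2 in counts per kb of exon, chosen after values were seen, was 0.188, 0.152 and 0.300 with the fusion, against 0.132, 0.0882 and 0.167 with empty vector and 0.107 in WT. These ratios overlapped between the groups, with the fusion 0.72 higher on the log2 scale (exact two-sided permutation test, p = 0.2).

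Gclc (ENSMUSG00000032350.8, chromosome 9:77754535-77794485, plus strand) encodes the catalytic subunit of glutamate-cysteine ligase, which carries out the rate-limiting step. It had 186, 163 and 202 CPM in the fusion libraries, against 78.7, 49.4 and 46.6 CPM in the empty vector libraries and 75.2 CPM in WT. The fusion libraries stood well above all others, and WT lay within the empty vector range. Its log2 fold change was 1.66 (SE 0.25, 95% interval 1.08 to 2.24, edgeR adjusted p = 0.0162). The 3 numbered pairs differed 2.37, 3.30 and 4.34 times. The call was lost in 3 of 6 fits that left out a library, namely without empty vector replicate 2, fusion replicate 1 or fusion replicate 2, where the edgeR adjusted p was at most 0.0909.

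Gclm (ENSMUSG00000028124.14, chromosome 3:122245557-122270732, plus strand) encodes the modifier subunit, which raises the activity of the ligase. Its levels were 489, 443 and 441 CPM with the fusion, against 150.1, 80.4 and 89.0 CPM with empty vector and 173 CPM in WT. The fusion libraries were close to each other and far above the rest, and WT lay above every empty vector library. Its log2 fold change was 2.10 (SE 0.27, 95% interval 1.47 to 2.73, edgeR adjusted p = 0.00811), the highest of the 7 genes. It passed in each of the 6 fits without 1 library (edgeR adjusted p = 0.00466 to 0.0426). By number the libraries differed 3.26, 5.51 and 4.96 times. Exons of Gclm overlap Gm17494 by 296 bases on the other strand and Gm6061 by 244 bases on the same strand, and the sources used here do not give the strand setting of the counting.

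The ratio of Gclm to Gclc is free of library size. In counts per kb of exon it was 1.57, 1.63 and 1.31 in the fusion libraries, against 1.14, 0.973 and 1.14 in the empty vector libraries and 1.38 in WT. Fusion and empty vector ratios did not overlap, with means of 1.5 ± 0.171 and 1.09 ± 0.0974 (SD, n = 3 each), while WT lay within the fusion range. The difference was 0.46 on the log2 scale, a factor of 1.38 (exact two-sided permutation test, p = 0.1, the smallest p that 3 against 3 allows).

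Gss (ENSMUSG00000027610.16, chromosome 2:155563181-155592810, minus strand) encodes glutathione synthetase. It had 29.1, 30.4 and 47.2 CPM with the fusion, against 34.5, 33.5 and 33.4 CPM with empty vector and 30.5 CPM in WT. Fusion replicates 1 and 2 were below all empty vector libraries and fusion replicate 3 was above them. Fusion over empty vector gave a log2 fold change of 0.07 with a 95% interval of -0.46 to 0.61 (edgeR adjusted p = 0.989), and -0.18 without fusion replicate 3. With the replicate block the interval was -0.36 to 0.43 (edgeR adjusted p = 0.911). Gss overlaps exons of Acss2, Gssos2 and Gssos1 on the other strand by 395, 385 and 322 bases. Whether reads from the shared bases were counted for Gss depends on the strand setting.

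The genes for the consecutive steps of synthesis were set against each other by ratios chosen after values were seen. Gclc to Gss, per kb of exon, was 10.1, 8.4 and 6.72 with the fusion, against 3.58, 2.32 and 2.19 with empty vector and 3.87 in WT. Gclm to Gss was 15.8, 13.7 and 8.78 with the fusion, against 4.09, 2.26 and 2.5 with empty vector and 5.34 in WT. Neither ratio overlapped between fusion and empty vector, with log2 differences of 1.66 and 2.12 (exact two-sided permutation test, p = 0.1 for each, the smallest possible). The ratios depend on the length used and their log2 differences do not. With the length of the longest principal transcript, chosen after the data were seen, Gclc to Gss averaged 3.07 ± 0.609 with the fusion and 0.985 ± 0.280 with empty vector, and Gclm to Gss averaged 4.76 ± 1.35 with the fusion and 1.10 ± 0.371 with empty vector (SD, n = 3 each).

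**Figure D2:**
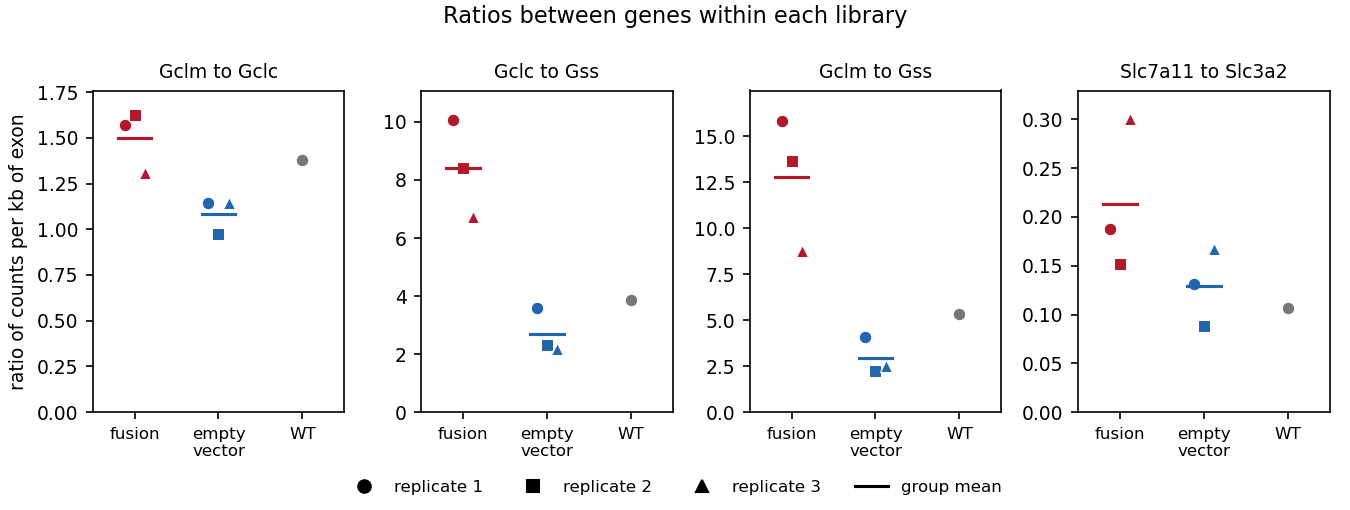
Ratios of transcript levels in counts per kb of exon (y axis, linear from 0) by group (x axis), 1 point per library with a bar at the mean. Gclm to Gclc, Gclc to Gss and Gclm to Gss do not overlap between fusion and empty vector, and Slc7a11 to Slc3a2 does.

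Gsr (ENSMUSG00000031584.15, chromosome 8:33652523-33698163, plus strand) encodes glutathione reductase, which uses NADPH to return the oxidised dimer to glutathione. It had 349.9, 259.6 and 310.4 CPM in fusion libraries, against 182, 116 and 109.7 CPM in empty vector libraries and 159 CPM in WT. The groups did not overlap and WT lay within the empty vector range. Its log2 fold change of fusion over empty vector was 1.17 (SE 0.25, 95% interval 0.59 to 1.76), which missed the threshold (edgeR adjusted p = 0.0660). It passed with the replicate block (edgeR adjusted p = 0.00277), by DESeq2 (adjusted p = 0.00154) and with no filter on low counts (edgeR adjusted p = 0.0314). With RLE normalization it missed (edgeR adjusted p = 0.0691). Of 6 fits that left out a library, 5 did not call it (edgeR adjusted p at most 0.283), all but that without empty vector replicate 1. By number the libraries differed 1.92, 2.24 and 2.83 times.

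Glrx (ENSMUSG00000021591.7, chromosome 13:75839868-75850154, plus strand) encodes glutaredoxin 1, which removes glutathione from protein thiols. It had 29.8, 38.2 and 47.1 CPM with the fusion, against 15.8, 21.4 and 25.7 CPM with empty vector and 21 CPM in WT. All fusion libraries were above all others. Within each group the order of the libraries was the same, with number 1 the lowest and number 3 the highest. The pairs differed 1.89, 1.79 and 1.83 times, a narrower range than for the other 6 genes. Its log2 fold change of 0.87 (SE 0.26, 95% interval 0.27 to 1.47) missed the threshold (edgeR adjusted p = 0.189, DESeq2 adjusted p = 0.0635) and passed with the replicate block (edgeR adjusted p = 0.00277).

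None of the other 3 glutaredoxins measured passed. Glrx2, a mitochondrial glutaredoxin, had a log2 fold change of -0.12 (edgeR adjusted p = 0.963). Glrx3 and Glrx5, monothiol glutaredoxins of iron-sulfur cluster handling, stood at -0.23 and 0.15 on that scale (edgeR adjusted p = 0.93 and 0.963). None of these 3 genes passed with the replicate block.

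Ggct (ENSMUSG00000002797.8, chromosome 6:54982580-54992950, minus strand) encodes gamma-glutamylcyclotransferase, which cleaves gamma-glutamyl amino acids into 5-oxoproline and the free amino acid. It had 17.0, 10.8 and 23.9 CPM with the fusion, against 11.9, 10.9 and 12.8 CPM with empty vector and 13.1 CPM in WT. Fusion replicates 1 and 3 lay above all empty vector libraries and fusion replicate 2 matched the lowest of them. The log2 fold change was 0.54 with a 95% interval of -0.15 to 1.23 (edgeR adjusted p = 0.643, and 0.150 with the replicate block). Fusion replicate 3 had the highest level of all 7 libraries for Slc7a11, Gclc, Gss, Glrx and Ggct. The libraries numbered 3 ran on other lanes than the rest, lane 2 for the fusion and lane 1 for empty vector, and had the highest shares of reads with several alignments (44.8% in fusion replicate 3 and 45.3% in empty vector replicate 3). Their part in the results was not tested, beyond the fits that leave these libraries out. In replicates 1 and 2 alone, which share lanes, none of the 7 genes passed (edgeR adjusted p = 0.0528 for Gclm, 0.0699 for Gclc and 0.0900 for Slc7a11). That fit called 270 of 16804 tested genes higher and 59 lower. With the replicate block 5 of the 7 passed there as higher, and 11% of the genes tested in these 4 libraries were called higher.

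**Figure D3:**
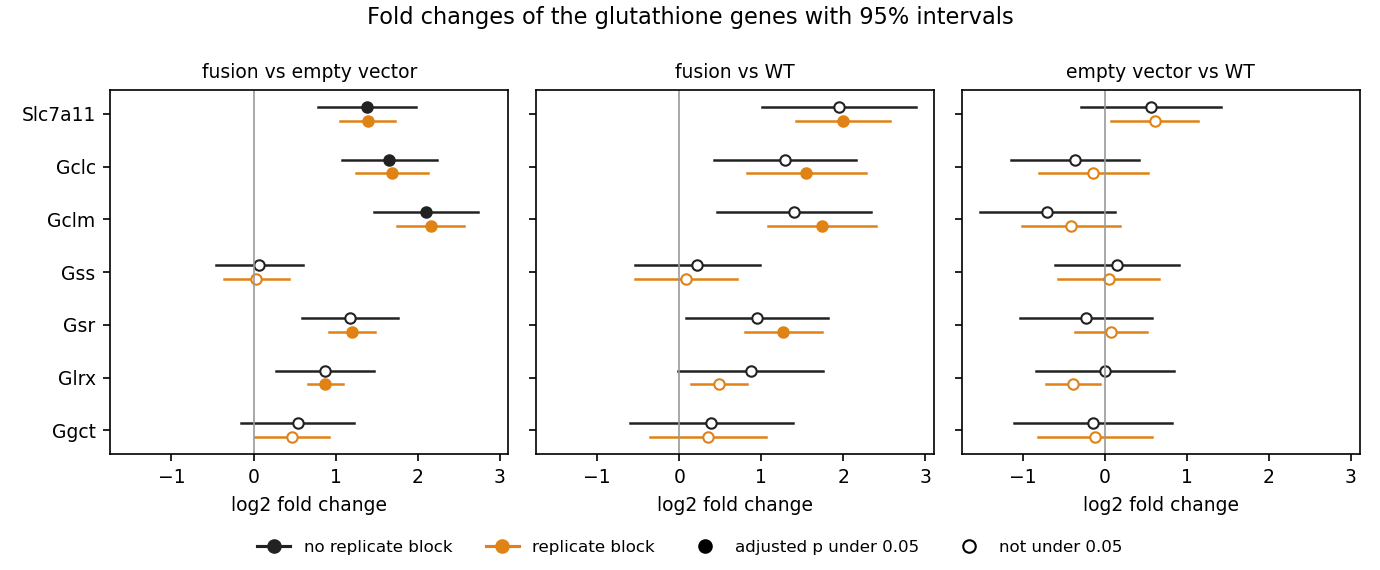
Log2 fold change with its 95% interval (x axis) of each of the 7 genes (y axis) for fusion over empty vector, without and with the replicate block, and for the comparisons with WT. For fusion over empty vector, Gclm has the highest value at 2.10, and the intervals of Gss and Ggct include 0.

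The order of transcript levels was read per length, in CPM per kb of exon. With the fusion the order was Gsr (111 ± 16.4), Gclm (72.7 ± 4.33), Gclc (48.8 ± 5.25), Slc7a11 (21.7 ± 4.91), Glrx (6.98 ± 1.57), Gss (6.02 ± 1.71) and Ggct (2.23 ± 0.844; SD, n = 3). The neighbours Glrx and Gss did not differ beyond their spread. With empty vector Gsr stood at 49.3 ± 14.5, Gclm at 16.9 ± 6.05, Gclc at 15.5 ± 4.72, Slc7a11 at 8.29 ± 1.93, Gss at 5.72 ± 0.107, Glrx at 3.81 ± 0.910 and Ggct at 1.53 ± 0.126 CPM per kb (SD, n = 3). There Gclm and Gclc lay within their spread of each other. Among all tested genes Gclm stood at the 96.4th percentile of level per kb with the fusion and at the 78.7th with empty vector, while Gss stood at the 55.8th and the 54.9th. These percentiles were taken with exon length only. For Gss that length was 5915 bases, against 1963 in its longest principal transcript, and for Gclm 6291 against 5589. The empty vector order depends on the length used. With the length of the longest principal transcript, an alternative added after the data were seen, Slc7a11 at 12.5 CPM per kb lay below Gss at 17.2 and Glrx at 15.6, and Gclc at 17.0 lay next to Gss.

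Against the WT library all 7 genes had a positive log2 fold change in fusion libraries, and none passed by edgeR without the replicate block. The values were 1.95 for Slc7a11 (edgeR adjusted p = 0.112), 1.40 for Gclm (0.288), 1.29 for Gclc (0.293), 0.95 for Gsr (0.572), 0.87 for Glrx (0.669), 0.39 for Ggct and 0.22 for Gss. In this comparison 0.341% of all tested genes were called higher, and the test takes the spread of the single WT library from the other libraries. With the replicate block 4 of the 7 passed as higher (Slc7a11, Gclc, Gclm and Gsr, edgeR adjusted p = 0.0116, 0.0365, 0.0220 and 0.0173), where 4.57% of the tested genes did. DESeq2 called 3 of the 7 higher (Slc7a11, Gclc and Gclm, adjusted p = 0.000186, 0.0385 and 0.0280), where it called 2.19% of the tested genes. For 5 of the 7 genes every fusion library lay above the WT library, as for 23.8% of all tested genes, and for Gss and Ggct the WT level lay within the fusion range.

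None of the 7 genes passed between empty vector and WT, and 0% of all tested genes were called (edgeR, 746 genes at an unadjusted p under 0.05, and 77 called by DESeq2). Log2 fold changes of empty vector over WT were 0.56 for Slc7a11, -0.70 for Gclm and -0.37 for Gclc. They were between -0.23 and 0.15 for Gsr, Gss, Glrx and Ggct. The 95% interval for Gclm was -1.53 to 0.12. The 3 comparisons share libraries, so their calls are not set against each other.

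The rest of the pathway was read from a list of 47 other genes of precursor supply, transsulfuration, cysteine use, breakdown, glutaredoxins, aldehyde removal, mitochondrial import and export. Of the 42 that were tested, 3 rose (Sqor, Ggt5 and Abcc4) and 1 fell (Cth) with the fusion, where 1.69% of all tested genes were called higher and 0.353% lower (edgeR). The median log2 fold change of the 42 was -0.01, against 0.01 over all tested genes, and 20 of the 42 were positive. The 5 genes not tested reached at most 0.152 CPM. With the replicate block 9 were called higher and 6 lower, against 7.63% higher and 5.5% lower among all tested genes. Every fusion library lay above every empty vector library for 8 of the 42 and below for 4, where 9.15% of all tested genes lay above and 6.66% below.

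Sqor, the mitochondrial quinone oxidoreductase that oxidises hydrogen sulfide, had 425, 484 and 619 CPM with the fusion, against 92.8, 125 and 126 CPM with empty vector and 110.2 CPM in WT. Its log2 fold change was 2.15 (SE 0.24, edgeR adjusted p = 0.00420). Abcc4, an exporter of organic anions that can carry glutathione, had 254, 303 and 156 CPM with the fusion, against 43.8, 38.4 and 18.0 CPM with empty vector and 32.3 CPM in WT. The log2 fold change of Abcc4 was 2.83 (SE 0.39, edgeR adjusted p = 0.0110). The groups did not overlap for either gene. The related exporters Abcc1 and Abcc5 had log2 fold changes of 0.88 each, short of the threshold, and passed with the replicate block (edgeR adjusted p = 0.00353 and 0.00261).

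Ggt5, a gamma-glutamyl transferase of the cell surface, had 2.99, 5.68 and 2.99 CPM with the fusion, against 0.0501, 0.197 and 0.289 CPM with empty vector and 0.361 CPM in WT. Its level was low in all groups, and the empty vector values rest on 3, 11 and 12 counts (log2 fold change 4.48, SE 0.60, edgeR adjusted p = 0.00939). Sqor, Ggt5 and Abcc4 each passed in all 6 fits that left out a library. Without empty vector replicate 2 Ggt5 and Abcc4 passed narrowly (edgeR adjusted p = 0.0497 and 0.0494). Ggt5 lost its call in the replicate block without both libraries numbered 2 (edgeR adjusted p = 0.0503). Ggt1, the better known member of the Ggt family, had 3.11, 4.89 and 3.29 CPM with the fusion, against 3.21, 4.71 and 0.842 CPM with empty vector and 0.12 CPM in WT, with no call (log2 fold change 0.36, edgeR adjusted p = 0.961).

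Cth, which makes cysteine from cystathionine in the transsulfuration route, had 44.6, 62.6 and 62.6 CPM with the fusion, against 110.3, 145 and 175 CPM with empty vector and 66.6 CPM in WT. All fusion libraries were below all empty vector libraries, and WT stood between the groups. The log2 fold change was -1.34 (SE 0.24, edgeR adjusted p = 0.0332, and 0.000744 with the replicate block). The call was lost in 5 of 6 fits without a library (edgeR adjusted p at most 0.128), all but that without empty vector replicate 1. Cbs, the enzyme before Cth in that route, lay between 0.361 and 1.10 CPM over the 7 libraries (log2 fold change 0.76, edgeR adjusted p = 0.603).

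Chac1, which degrades glutathione inside the cell and is known as an ATF4 target, averaged 78.4 ± 31.1 CPM with the fusion and 124 ± 46.2 CPM with empty vector (SD, n = 3 each), with 58.4 CPM in WT. The groups overlapped and Chac1 missed the threshold (log2 fold change -0.66, edgeR adjusted p = 0.625), while it passed as lower with the replicate block (edgeR adjusted p = 0.0185).

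**Figure D4:**
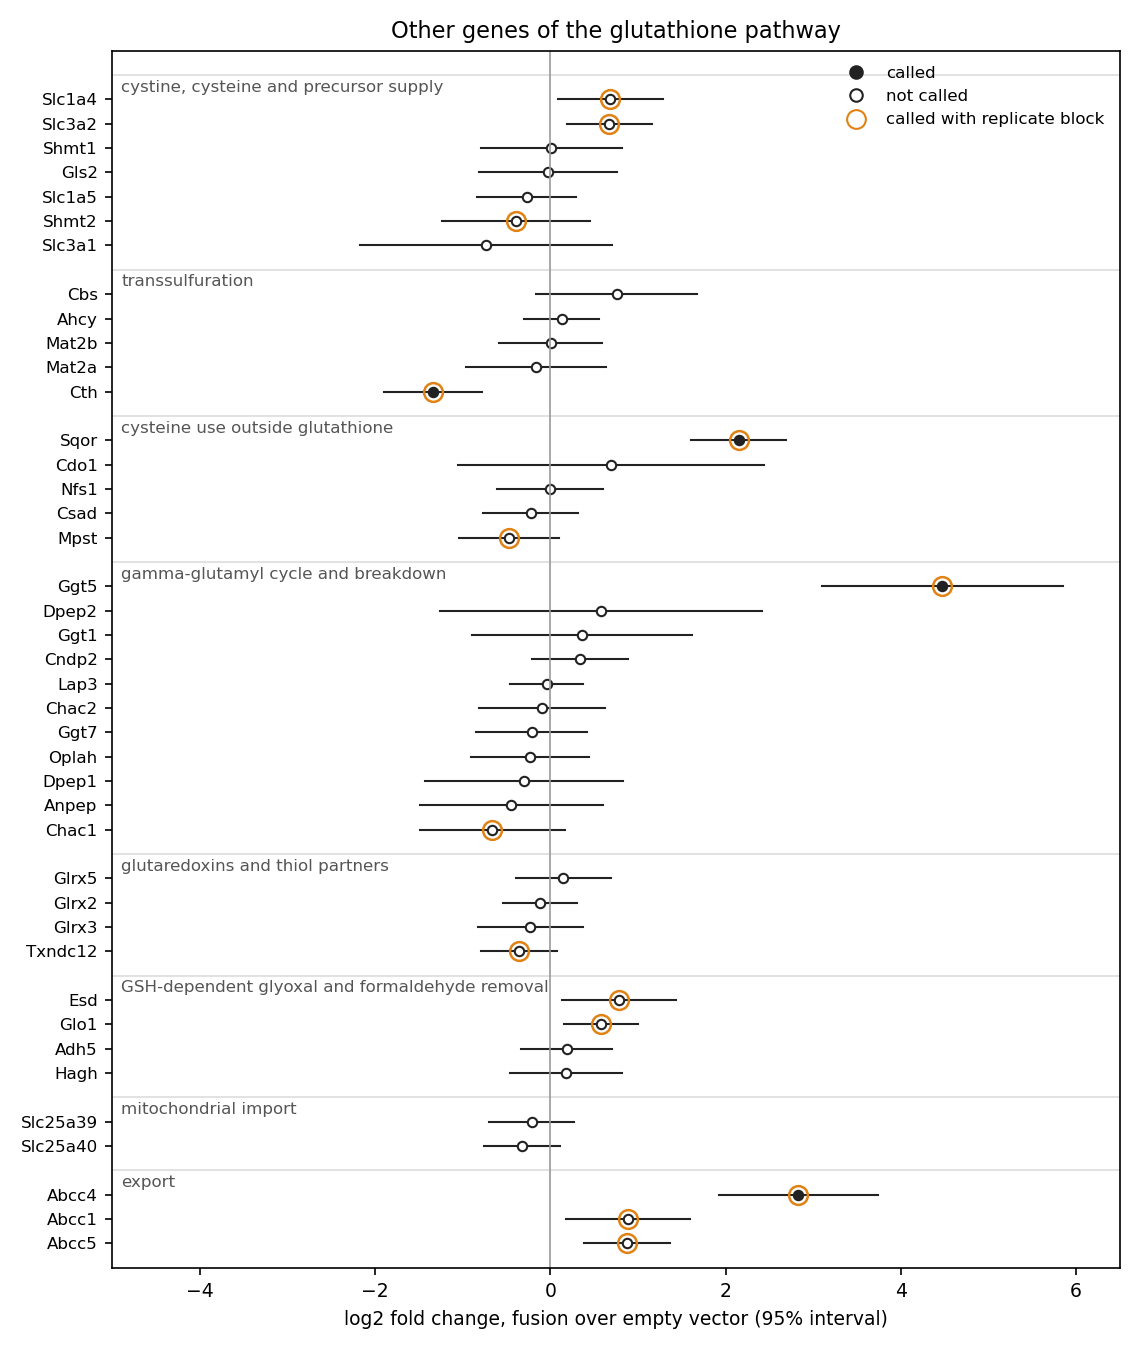
Log2 fold change of fusion over empty vector with its 95% interval (x axis) for tested genes of the rest of the pathway that are reported here (y axis), grouped by step. Filled points passed the test without the block and rings mark those that passed with it. Sqor, Ggt5 and Abcc4 lie on the right and Cth on the left, and most of the other points lie near 0.

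Likeness to 3 of the genes was measured as Pearson's r of log2(CPM + 0.5) over the 7 libraries, among 10303 other genes with a mean of at least 5 CPM. The libraries fall into groups, and r, which also takes in the group levels, is given as a description. The genes most like Gclm were Sod1 (0.992), Gclc (0.989), Ap2m1 (0.987), Tdpx-ps1 (0.985) and Aldh3a1 (0.981). Sod1, the cytosolic superoxide dismutase, averaged 156 ± 11.4 CPM with the fusion and 82.9 ± 11.3 CPM with empty vector (SD, n = 3 each), with 105.3 CPM in WT. Ap2m1 encodes a subunit of the clathrin adaptor and Aldh3a1 an aldehyde dehydrogenase. Those most like Gclc included Tdpx-ps1 (0.994), Sod1 (0.992), Aldh3a1 (0.99) and Gclm (0.989). Tdpx-ps1 is named as a pseudogene, so its reads may belong to a near-identical copy. Slc7a11 had other neighbours, Ak3 (0.99), R3hdml (0.972), Fam135b (0.969), Thtpa (0.966) and Cd24a (0.965). Ak3, a mitochondrial adenylate kinase, averaged 158 ± 13.1 CPM with the fusion and 104.5 ± 8.26 CPM with empty vector, with 95.5 CPM in WT. Of the other 5 genes Gsr was the most like the ligase subunits, with r of 0.986 to Gclc and 0.9752 to Gclm. The r to Gclm was 0.856 for Slc7a11, 0.713 for Glrx, 0.565 for Ggct and 0.1004 for Gss.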

How the data were processed

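The authors deposited raw read counts for every gene, with a table per library and lane. STAR, HTSeq and the build GRCm38 are named per the submitters' processing notes. Software versions, the release of the annotation and the strand setting: not given in the sources used here. The 12 lane tables were summed to 7 libraries, after a chi-square test found no difference between lanes of a library beyond sampling noise (0.981 to 1.01 per degree of freedom). Rows that name no gene stayed out, and reads with several alignments were 36.1 to 45.32% of a library. Symbols, positions and exon lengths come from GENCODE M21 of GRCm38.

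Fusion was compared with empty vector in 6 libraries by edgeR 4.0.16 in R 4.3.3. The fit used TMM, filterByExpr with a minimum count of 10, robust dispersions and the quasi-likelihood F test, with adjustment after Benjamini and Hochberg over 16731 genes at 0.05. The biological coefficient of variation was 0.301. Comparisons with WT used all 7 libraries. CPM use TMM factors of 0.944 to 1.037, and an SD covers the 3 libraries of a group. Reads carry no molecular identifiers, so limits for 0 counts cover counting error only. The fits were tested on simulated data.

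Groups share replicate numbers, and deviations from the group means correlated between same-numbered libraries (r = 0.659, 0.630 and 0.610), with r of -0.530 to -0.0474 between others. Deviations within a group sum to 0 for each gene. Positive values for same numbers thus force negative values elsewhere on balance, and the negative values add nothing of their own. The main fit did not pair the libraries. An alternative fit with the replicate number as a block did, from the data alone, as no label names a shared day or batch. Others were RLE normalization, DESeq2 1.42.0, no filter on low counts, replicates 1 and 2 only, leaving out each library, other pseudocounts for likeness and, added after the data were seen, the block without both libraries of a number and another exon length.

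The members and gene lists were chosen with earlier results of these data known. Named genes are the 7 members, list genes that passed, 8 list genes named whatever their values, 3 check genes and, of the 5 genes most like each of Gclm, Gclc and Slc7a11, those reported here. Genes of the list named beyond this rule (Abcc1, Abcc5 and those in the closing section) were chosen after their values were seen. Those of them that passed with the replicate block all passed as higher. Genes of the list that passed as lower with the block included Shmt2, Mpst and Txndc12. Their log2 fold changes in that fit were -0.37, -0.46 and -0.36 (edgeR adjusted p = 0.0344, 0.0237 and 0.0297). Some genes of the lists and of this rule are not reported here.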

Additional observations from a re-analysis of the deposited data

How the results depend on the processing

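With 3 libraries a group, and 1 for WT, calls near the threshold move with the fit. Between fusion and empty vector 341 genes were called without pairing, 2196 with the replicate block, 922 by DESeq2 and 530 with no filter on low counts. Leaving out a library gave 133 to 384 genes, with 133 without empty vector replicate 2, 196 without fusion replicate 1 and 148 without fusion replicate 2. The replicate block without both libraries numbered 1, 2 or 3 gave 1537, 409 and 3200 genes, with 5, 4 and 5 of the 7 genes called. Gclc lost its call in the block without number 2 (edgeR adjusted p = 0.0538), and the block over all 6 libraries lost no call among the 7. Fusion against WT gave 73 genes, 498 by DESeq2, 1642 with the replicate block and 1 to 84 when a fusion library was left out (16 without replicate 1, 1 without replicate 2). Empty vector against WT gave 0 genes, 77 by DESeq2 and 20 with the replicate block. In the list of other pathway genes 3 were called higher, 9 with the replicate block, and 9, 5 and 9 with the block without number 1, 2 or 3.

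Among the 7 genes, directions turned only for log2 fold changes between -0.23 and 0.22. For fusion over empty vector, Gss was -0.18 in replicates 1 and 2 only, with or without the replicate block, and -0.18 to 0.20 when a library was left out, the lowest without fusion replicate 3. For fusion over WT it was -0.035 without fusion replicate 3 and at most 0.34 without another. For empty vector over WT, Gsr was 0.070 with the replicate block, and Glrx was 0.014 with RLE normalization, 0.014 by DESeq2, 0.20 without empty vector replicate 1, 0.013 without replicate 2 and -0.18 without replicate 3. The median of the list of other pathway genes ranged from -0.10 without fusion replicate 3 to 0.044 without fusion replicate 2, and was 0.029 and 0.018 without empty vector replicates 1 and 3. The ratio of Gclm to Gclc kept its direction in all 10 alternatives, but none of them could have turned it. Raw counts, another exon length and the replicate block leave its log2 difference at 0.465 by construction. The fusion and empty vector ratios did not overlap, so leaving out libraries could change only its size (0.388 to 0.601). The cause of these changes was not tested.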

Other observations

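Esd, which with Adh5 removes formaldehyde through glutathione, had 440.2, 438 and 669.6 CPM with the fusion, against 233, 265 and 401 CPM with empty vector and 265 CPM in WT. The groups did not overlap, and the log2 fold change of 0.78 passed only with the replicate block (edgeR adjusted p = 0.306, and 0.00299 with the block). Glo1, the glyoxalase that clears methylglyoxal as a glutathione adduct, had 59.0, 51.9 and 63.4 CPM with the fusion, against 40.3, 35.7 and 40.8 CPM with empty vector and 54.3 CPM in WT. Its log2 fold change was 0.58 (edgeR adjusted p = 0.228, and 0.00811 with the block), and WT lay within the fusion range. Exons of Glo1 overlap unnamed loci on the other strand, and whether reads from the shared bases were counted depends on the strand setting.

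Slc1a4, a carrier of neutral amino acids that include cysteine, had 154, 180 and 109.7 CPM with the fusion, against 106.5, 101.4 and 67.8 CPM with empty vector and 95.1 CPM in WT (log2 fold change 0.69, edgeR adjusted p = 0.351, and 0.00574 with the block). Slc25a39 and Slc25a40, mitochondrial carriers linked to glutathione import, had log2 fold changes of -0.21 and -0.32 and did not pass in either fit (edgeR adjusted p = 0.901 and 0.681, and 0.102 and 0.115 with the block).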
